A study of Mus musculus with 14 samples.

Results

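The spots of the growing leg bone that were richest in bone matrix transcripts were examined in 1 Visium section from a wild-type mouse at postnatal day 8 (P8). A spot is a small capture area that takes up RNA from several cells, and a UMI is 1 counted molecule tag. Members were chosen by measured values: they were the spots on tissue, each with 1000 or more genes detected, whose share of UMIs from Col1a1, Bglap and Ibsp lay in the top 10% of the section. This gave 109 bone-forming spots of the 1085 spots that passed in this section, and of 15983 over all 14 sections of the series. The reference on the same section was 264 marrow spots, which lay outside the top 25% of that share and held at least 0.5% of UMIs from 10 neutrophil genes (S100a8, S100a9, Ngp, Camp, Ltf, Lcn2, Mpo, Elane, Prtn3 and Retnlg). Because the classes were cut from these 13 genes, their levels are given as a description and none of them is counted among the differences.

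The series mapped the niches of red cell precursors in mouse blood-forming tissues. It holds 6 sections of purchased wild-type mice and 8 sections from a cross that carries or lacks C1qa. The P8 section is formalin-fixed, paraffin-embedded leg bone of a purchased wild-type mouse with no treatment in its labels, and the study chose this age so that the bone did not have to be decalcified. Nothing in the labels gives the number of animals or a second section of this age, so no difference below has a replicate, spots are not replicates, and each 95% interval covers counting error only.

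Bone is laid down by osteoblasts, which secrete type I collagen, process and cross-link it outside the cell, and then mineralize it with the help of enzymes that release phosphate. Runx2 and Sp7 (osterix) are the transcription factors that commit a cell to this lineage, and osteoblasts buried in matrix become osteocytes, which make Dmp1, Mepe and sclerostin (Sost). In a growing long bone, new trabecular bone forms on a scaffold of hypertrophic cartilage at the growth plate, cortical bone forms under the periosteum, and osteoclasts, which are cells of the blood lineage, resorb both.

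The bone share was between 12.7% and 23.5% in the 109 bone-forming spots, with a median of 15.6%, and between 0.757% and 7.92% in the marrow spots, with a median of 4.02%. The last 3 spots inside the limit held 12.838%, 12.734% and 12.686%, and the first 3 outside it held 12.614%, 12.610% and 12.586%. There was thus no gap in the share at the limit. Col1a1, the alpha-1 chain of type I collagen, made up 96.8% of the rule-gene UMIs in the bone-forming spots. Ranking by Col1a1 alone would have kept 107 of the 109 spots, whereas ranking by Bglap and Ibsp alone would have kept 55. The 3 rule genes were not alike. Ibsp (bone sialoprotein) had a median of 0.198% of UMIs per bone-forming spot and 0.0399% per marrow spot, while Bglap (osteocalcin) had medians of 0.0828% and 0.120%, so that the typical bone-forming spot was not the richer in osteocalcin.

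**Figure D1:**
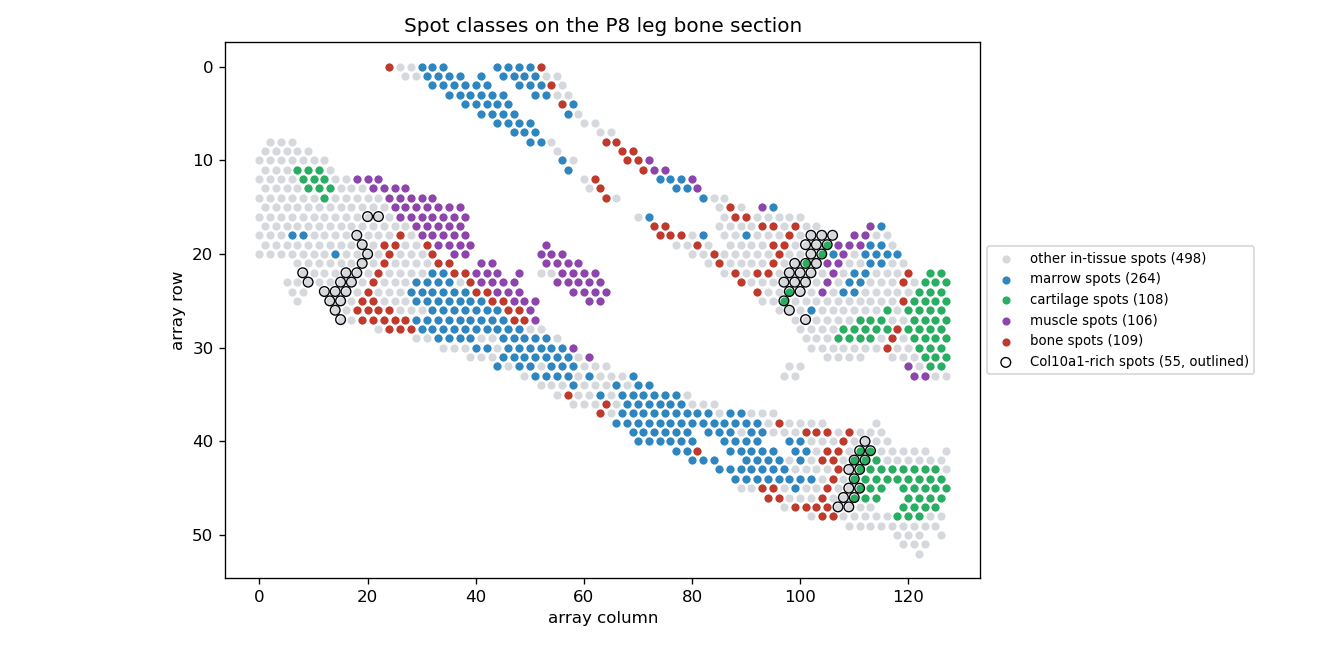
Positions of the spots of the P8 section by array column and row, coloured by class, with the Col10a1-rich spots outlined. The 109 bone-forming spots lie in 26 patches, the largest of 22 spots, in 4 of the 6 separate pieces of tissue.

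Bone-forming spots held a median of 25035 UMIs, with a range of 2944 to 61034, and 5856 detected genes. Marrow spots held a median of 32720 UMIs, with a range of 2003 to 96800, while 108 cartilage spots had a median of 11048 and 106 muscle spots one of 16119. Most bone-forming spots lay in the largest piece of tissue (65 spots) and the next largest (40 spots), with 3 in another piece and 1 in yet another. In the largest piece the medians were 30952 UMIs for bone-forming and 35948 for marrow spots. The order turned in the next largest, at 14527 and 5363, with 42 marrow spots. Spots outside the tissue held RNA as well: rule genes made up 5.92% of UMIs in 3897 off-tissue spots and 6.20% in passing tissue. Off-tissue spots had a median of 6607 UMIs at 1 step from tissue, 2763 at 2 to 5 steps and 343 over 5 steps. In those 1 step from a bone-forming spot the median was 8449.5. A step is the distance between the centres of neighbouring spots. How far free RNA of this kind lowered the differences below was not tested.

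The label was checked with 6 osteoblast genes that the rule did not use. Levels are given as CPM, the UMIs of a gene scaled to a total of 1000000 from which the 3 rule genes were left out. Col1a2, the partner chain of Col1a1, ranged from 92576 to 227690 CPM in the bone-forming spots, with a median of 142360, and from 6230 to 84123 in the marrow spots, with a median of 35508. The classes did not overlap for this gene. Col1a2 followed Col1a1, which made up most of the bone share, with a Spearman correlation of 0.90 across the bone-forming spots. Its separation therefore follows largely from the choice of spots and is no independent check of the label. Sparc (osteonectin, a collagen-binding matrix protein) also followed Col1a1, at 0.74. It ranged from 11024 to 25281 with a median of 16247, against 703 to 14831 with a median of 4346 in marrow spots. For Sparc, 72 of the 109 bone-forming spots lay above the highest marrow spot. 

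The rarer markers were higher in the pool but overlapped from spot to spot. Alpl, the phosphatase of mineralizing cells, had a lowest, median and highest level of 0, 568 and 2437 CPM in bone-forming spots and of 0, 123 and 737 in marrow spots. Sp7 had levels of 0, 235 and 935 against 0, 28.4 and 482, and Ifitm5, an osteoblast membrane protein of mineralizing bone, had 0, 185 and 812 against 0, 21.8 and 501. For these 3 genes 27, 7 and 5 of the 109 bone-forming spots, respectively, lay above the highest marrow spot. Runx2 had levels of 0, 265 and 537 against 0, 76.5 and 918, and no bone-forming spot lay above the highest marrow spot. A UMI of each of the 6 genes was found in 85 bone-forming spots, 13 spots had 5 of them and 11 spots had 4 or fewer.

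**Figure D2:**
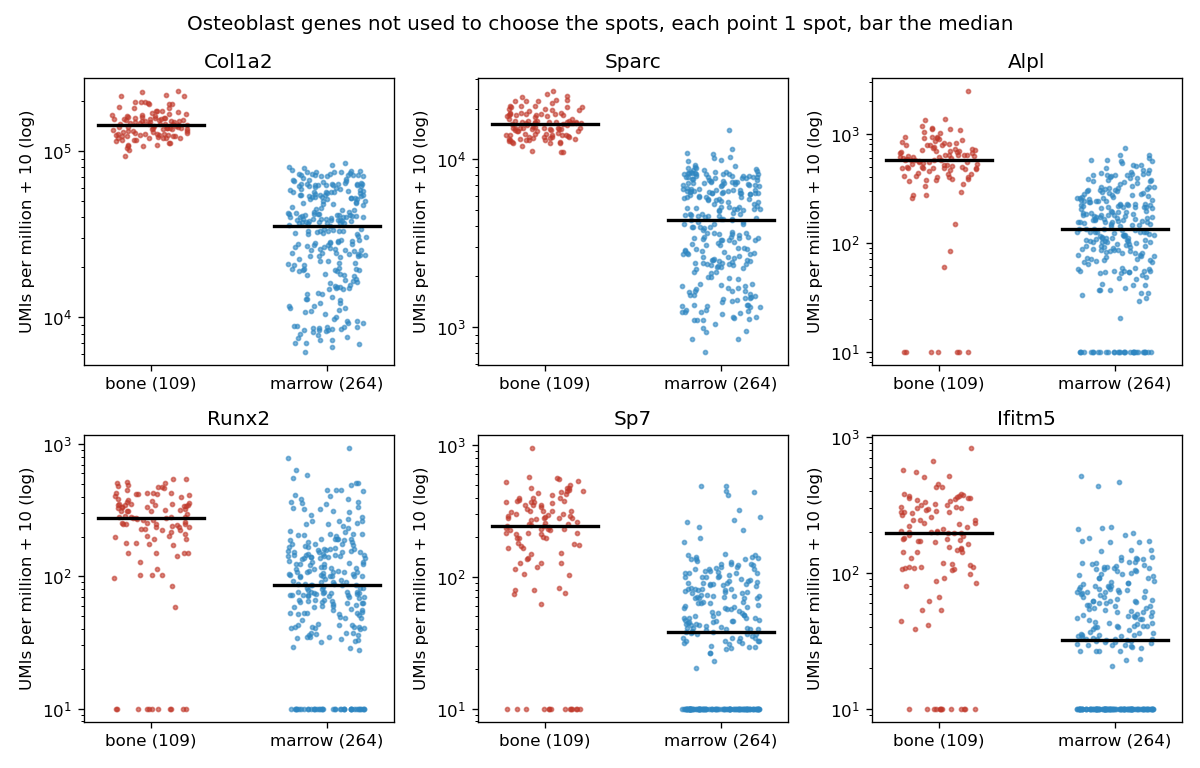
CPM plus 10, on a log axis, of 6 osteoblast genes that did not choose the spots, in each of 109 bone-forming and 264 marrow spots, with a bar at the median. Col1a2, which follows the rule gene Col1a1, separates the classes, with medians of 142360 and 35508, while Alpl, Runx2, Sp7 and Ifitm5 overlap.

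Pooled over spots, the 6 genes were 2.79-fold (Runx2) to 6.15-fold (Sp7) higher in the bone-forming spots. Sp7 was counted 610 times in bone-forming and 340 times in marrow spots, a ratio of 6.15 (95% interval 5.38 to 7.05), and Ifitm5 488 and 280 times, a ratio of 5.98 (5.15 to 6.95). The ratio was 4.65 for Col1a2 (4.63 to 4.68), 4.44 for Sparc (4.37 to 4.51), 4.16 for Alpl (3.85 to 4.50) and 2.79 for Runx2 (2.51 to 3.1). All 6 were also at least 2-fold higher in each of the largest tissue pieces taken alone. With Col1a2 and Sparc, which both followed Col1a1, set aside, the values of Alpl, Runx2, Sp7 and Ifitm5 fit the name bone-forming for the class as a whole. A spot holds several cells, so a difference in the number of cells of a type and one in RNA per cell cannot be told apart here or below.

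A small subset went against the name. In 6 bone-forming spots of the next largest piece, chosen after the values were seen because both Ibsp and Bglap2 were under the marrow medians, no Sp7 UMI and 1 Ifitm5 UMI were counted among 91185 UMIs, although their bone share was 12.7% to 18.1%. Their leading genes were those of fibrous tissue and cartilage. Fmod (fibromodulin, of tendon and fibrocartilage) stood at 11408 CPM against 671 in the other bone-forming spots, Comp at 9389 against 526, Clec3a at 78.6 times their level, and Col2a1 (type II collagen) at 96180 against 6926. Col1a2 was 0.770 times that of the others. Without these 6 spots, 14.8% of 10958 counted features were at least 2-fold higher and 11.8% at least 2-fold lower than in marrow, and the 6 osteoblast genes stayed at least 2-fold higher.

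Of 10977 counted features, which had at least 50 UMIs over both classes, 1669 (15.2%) were at least 2-fold higher in bone-forming than in marrow spots and 1309 (11.9%) at least 2-fold lower. Of these, 196 were at least 4-fold higher and 385 at least 4-fold lower. The median log2 ratio over counted features was 0.13, and 56.0% of the 2-fold differences were in the higher direction. With TMM scaling the median became -0.07 and that share 42.7%, and with every spot weighted equally the share was 48.5%.

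Bone matrix genes were higher as a block. All 11 collagen chains of the list were at least 2-fold higher, with a median log2 ratio of 2.11. Col3a1 (fibrillar, of young matrix and periosteum) was 4.31-fold higher (4.21 to 4.42), Col12a1, a chain that sits on collagen fibrils, 4.58-fold (4.28 to 4.91), and Col24a1, a minor fibrillar collagen of bone, 5.33-fold (3.77 to 7.59) on 87 and 56 UMIs. Of 22 collagen-processing genes 20 were higher and none lower (median 1.95). Serpinh1, the collagen chaperone HSP47, was found at 1618 to 6308 CPM in bone-forming spots, with a median of 3759, against 104 to 5144 and a median of 941 in marrow spots. Its pooled ratio was 4.40 (4.26 to 4.54). Creb3l1 (OASIS, a regulator of collagen secretion) was 5.33-fold higher (4.94 to 5.75), Fkbp10, a prolyl isomerase for collagen, 5.14-fold (4.84 to 5.46), and Lox, the cross-linking oxidase, 4.40-fold (4.10 to 4.72). The exceptions were Plod3 at 1.93-fold (1.68 to 2.20) and Tmem38b at 1.23-fold (0.819 to 1.82).

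The rest of the matrix and the mineralizing machinery followed. Of 16 other matrix genes 15 were higher (median 1.81), led by Tnn (tenascin-W, of periosteum and osteoblasts) at 7.43-fold (6.59 to 8.39) on 858 and 396 UMIs. Spp1 (osteopontin) was 2.22-fold higher (2.18 to 2.27). Bglap2, the near-identical neighbour of Bglap, was the exception at 1.75-fold (1.70 to 1.81), and because of that likeness the split of osteocalcin UMIs between the 2 genes is uncertain. Of 11 mineralization genes 8 were higher and 1 lower (median 1.85). Phospho1, the phosphatase of matrix vesicles, was 4.70-fold higher (4.42 to 5.00), Smpd3, a sphingomyelinase needed for mineralization, 5.12-fold (4.37 to 6.00), and Phex, which restrains phosphate-wasting signals, 5.04-fold (4.55 to 5.57). Slc20a1, a phosphate importer also used by blood cells, was lower, with a ratio of 0.405 (0.304 to 0.531).

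Regulators showed the same direction with smaller counts. Of 12 counted osteoblast transcription factors 10 were higher and none lower (median 1.52). Beside Sp7, Dlx3 was 5.31-fold higher (3.82 to 7.43) on 96 and 62 UMIs and Dlx5 3.54-fold (3.07 to 4.08), whereas Atf4, a general stress and osteoblast factor, was at 1.24 (1.14 to 1.36). Of 16 Wnt genes 12 were higher and none lower (median 1.41). The secreted inhibitors Dkk1, at 5.09-fold (3.63 to 7.18), and Notum, at 4.73-fold (3.47 to 6.47), led them with the Wnt effector Tcf7 at 4.19-fold. The related effector Lef1 was at 0.675 (0.482 to 0.925). Of 20 genes of BMP, TGF-beta, PTH, FGF and IGF signalling 14 were higher and none lower (median 1.43), among them the PTH receptor Pth1r at 4.76-fold (4.34 to 5.21), the BMP decoy Bambi at 4.87-fold and Bmp3 at 4.46-fold. Of 16 secretory pathway genes 6 were higher (median 0.92), with the retrieval receptor Kdelr3 at 5.37-fold (4.83 to 5.96) and the chaperone Hspa5 at 1.42-fold (1.34 to 1.50).

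Of 8 counted osteocyte genes 6 were higher and none lower (median 1.76). Dmp1, made by young osteocytes, had a median of 1397 CPM per bone-forming spot and 341 per marrow spot, and a pooled ratio of 3.88 (3.70 to 4.07). Sost, the Wnt inhibitor of mature osteocytes, had medians of 93.1 and 27.5 and a ratio of 2.82 (2.45 to 3.24). Mepe, a mineral-binding osteocyte protein, was at 1.29 (1.03 to 1.62).

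Over all counted features, the largest folds were those of Kcnh2, a potassium channel, at 9.43 (6.38 to 14.2) on 99 and 36 UMIs, and Ptgs2 (cyclooxygenase-2, a prostaglandin synthase) at 9.40 (5.75 to 15.9) on 63 and 23 UMIs. Hoxb2 (8.30), Lrrc15 (7.92), Gal (7.52), Tnn, Panx3 (6.85), Sema3b (6.76), Ephx4 (6.68), Cilp2 (6.44), Carmil1 (6.39) and Hapln4 (6.38) came next. Of the 246 Cilp2 UMIs, 116 lay in the 6 spots without Sp7 described above. Among the lowest ratios were those of Cdkl1, Tac2, Ear1, Slco4c1, Cnr2, Apol11b and Reep2, each with 1 UMI in the bone-forming spots. Cdkl1, a kinase, had 124 marrow UMIs and a ratio of 0.0277 (0.000695 to 0.157), and Tac2, a tachykinin precursor, had 107 and a ratio of 0.0321 (0.000804 to 0.182).

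Blood-cell genes were lower. All 14 counted erythroid genes were at least 2-fold lower (median -2.48), and their summed level was 22057 CPM in bone-forming and 135970 in marrow spots. Hbb-bs, an adult beta-globin gene, ranged from 1812 to 56240 CPM with a median of 11894 in bone-forming spots, against 6917 to 229850 with a median of 74557. All 14 other neutrophil genes (median -2.73), all 8 megakaryocyte genes (median -2.97), 9 of 10 B-lineage genes (median -2.31) and all 13 cell-cycle genes (median -1.50) were lower, as were 3 of 5 stem and progenitor genes (median -1.07) and 3 of 6 adipocyte genes (median -0.98). Of 9 macrophage genes 3 were lower and 1 higher (median -0.85), with C1qa, a complement subunit, at 0.655 (0.541 to 0.788). Of 11 marrow stroma genes 2 were lower and 3 higher (median -0.05). Cxcl12, the chemokine that retains stem cells, was at 0.441 (0.398 to 0.489), and Pdgfra, of mesenchymal progenitors, was at 3.23 (2.81 to 3.71). Of 12 endothelial genes 2 were lower and none higher (median 0.18).

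**Figure D3:**
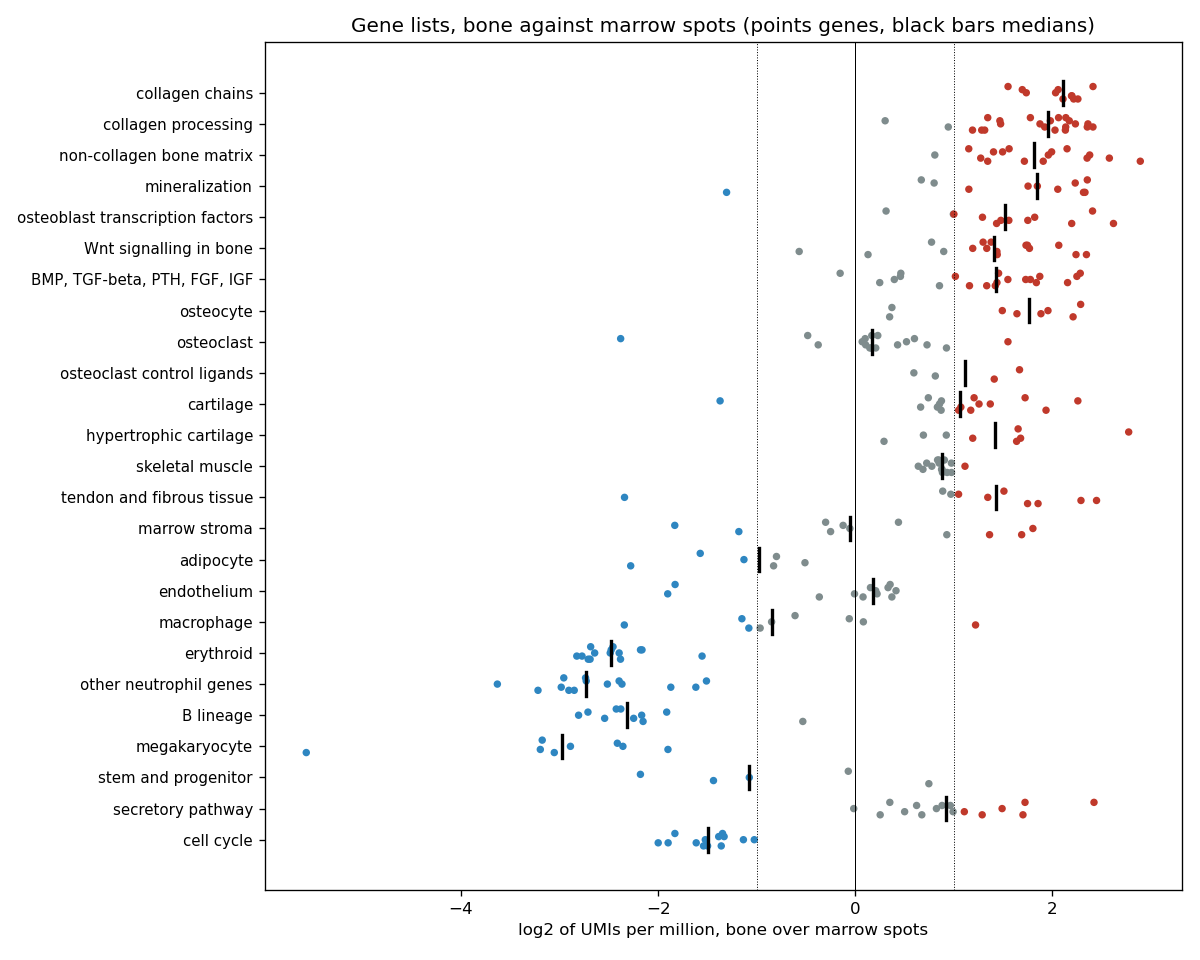
Log2 ratio of bone-forming to marrow spots for each counted gene, by gene list, with a bar at each list's median. Collagen chains (median 2.11) stand highest and megakaryocyte genes (median -2.97) lowest, against 0.13 over all counted features.

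Genes of neighbouring tissues were part of these spots. Of 16 cartilage genes 9 were higher and 1 lower (median 1.06), and their summed level was 19570 CPM against 7622 in marrow spots. Of 8 hypertrophic cartilage genes 5 were higher (median 1.42), with Col10a1, the collagen of hypertrophic chondrocytes, at 3.15-fold (2.93 to 3.38), and of 10 tendon and fibrous tissue genes 7 were higher and 1 lower (median 1.43). Of 15 muscle genes 1 was higher (median 0.88), and their summed level was 4130 against 2225. The part of these tissues in the differences above was not tested. Without the 6 spots described above, 6 cartilage, 4 hypertrophic and 5 tendon genes were higher.

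Compared with cartilage spots, 1454 of 8508 counted features (17.1%) were at least 2-fold higher in bone-forming spots and 460 (5.41%) lower. Compared with muscle spots, 863 of 9191 (9.39%) were higher and 1096 (11.9%) lower. Cartilage spots are the top 10% by share of Col2a1, Acan, Col9a1, Col9a2 and Col9a3, and muscle spots the top 10% by share of Acta1, Ckm, Mylpf, Tnnt3 and Tnnc2. Some osteoblast genes set bone apart from both tissues. The log2 ratio was 3.63 over cartilage and 3.62 over muscle for Ifitm5, 2.74 and 3.58 for Sp7, and 4.90 and 3.49 for Dmp1. Others did not. Panx3, a channel of prehypertrophic chondrocytes and osteoblasts, was at -0.49 over cartilage and 3.23 over muscle, and Pth1r was at -0.38 and 2.75. Sparc was at 0.52 and 2.14, and Postn (periostin) was at 1.41 and -0.52, so that muscle spots held more periostin than bone-forming spots.

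The bone-forming spots were not uniform. Across the 109 spots, which share 1 library, the Spearman correlation between Ibsp and Bglap was -0.62. Both entered the summed share that chose the members, so this value is a description only. Bglap and Bglap2 were at 0.97, Ibsp and the collagenase Mmp13 at 0.71, and Ibsp and Col3a1 at -0.68. Postn and Col3a1, both of periosteum, were at 0.91 and Ctsk and Acp5, both of osteoclasts, at 0.90. The pattern was laid out by patch. A patch of 22 spots held 5971 Ibsp and 630 Bglap2 CPM, whereas a patch of 15 spots in the same piece held 1688 and 5375. In the next largest piece, a patch of 8 spots held 6332 and 128, and a patch of 7 spots held 1179 and 19325.

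The position of each patch was set against the growth plate, an analysis chosen after the data were seen. The 55 spots richest in Col10a1, the top 5% with at least 1.01% of their UMIs from this gene, served as the landmark. They lay in 2 pieces of tissue and included no bone-forming spot. Of the bone-forming spots, 27 lay within 2 steps of a Col10a1-rich spot, 23 at 3 to 5, 27 at 6 to 10 and 32 at 11 to 25. The near and the far spots had like bone shares, with medians of 16.4% and 16.0%, but the far spots were shallower, with median UMIs of 15880 against 27505.

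Osteocalcin and bone sialoprotein ran in opposite directions along this axis. Ibsp is a rule gene and Bglap2 a near-identical copy of the rule gene Bglap, so their values here are a description only. From near to far, Bglap2 stood at 405, 656, 2269 and 9297 CPM, a far-to-near ratio of 22.9 (20.2 to 26.1). Per spot it ranged from 66.5 to 2013 with a median of 279 in the near spots and from 4327 to 23123 with a median of 9564 in the far spots. No near spot reached the lowest far spot. Ibsp stood at 6570, 4844, 2019 and 1278 CPM, a near-to-far ratio of 5.14 (4.71 to 5.62). Its range was 767 to 10904 with a median of 6854 in near spots and 416 to 2136 with a median of 1156 in far spots, and 24 of the 27 near spots lay above the highest far spot. Across all 109 spots the Spearman correlation with distance was 0.79 for Bglap2 and -0.78 for Ibsp, while with depth it was -0.40 and 0.51.

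Other genes divided in the same manner. Among osteocyte genes, Sost stood at 38.7, 115, 154 and 400 CPM, 10.3-fold higher far than near (6.78 to 16.4), and 27 of the 32 far spots lay above the highest near spot. Mepe stood at 17.0 near and 98.9 far, a ratio of 5.81 (2.95 to 12.5) on 11 and 44 UMIs. Dmp1 was level along the axis, at 1488 near and 1490 far, a ratio of 1.00 (0.905 to 1.11). Single genes of osteoblasts and mineralization were higher near the landmark, while their lists as a whole were not. Of 10 osteoblast transcription factors 2, Sp7 and Sox4, were at least 2-fold higher near (median -0.36 far over near), and of 9 mineralization genes 1, Phospho1, was higher near and 1, Ank, higher far (median -0.11). Alpl was at 1.24 near over far (1.06 to 1.45). Near-to-far ratios were 2.06 for Sp7 (1.57 to 2.72), 2.13 for Ifitm5 (1.57 to 2.93), 2.34 for Phospho1 (2.05 to 2.68), 2.15 for Pth1r (1.74 to 2.67) and 3.27 for Tcf7 (1.74 to 6.70). Panx3 stood at 427 near and 85.4 far, a near-to-far ratio of 5.00 (3.55 to 7.22), and Mmp13, the collagenase of hypertrophic cartilage and osteoblasts, at 2373 and 1007. The bulk of the matrix did not follow: Col1a2 was at 0.977 far over near (0.967 to 0.987), Sparc at 0.940 (0.912 to 0.969), Runx2 at 0.968 (0.754 to 1.24), and none of 10 collagen chains differed 2-fold.

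**Figure D4:**
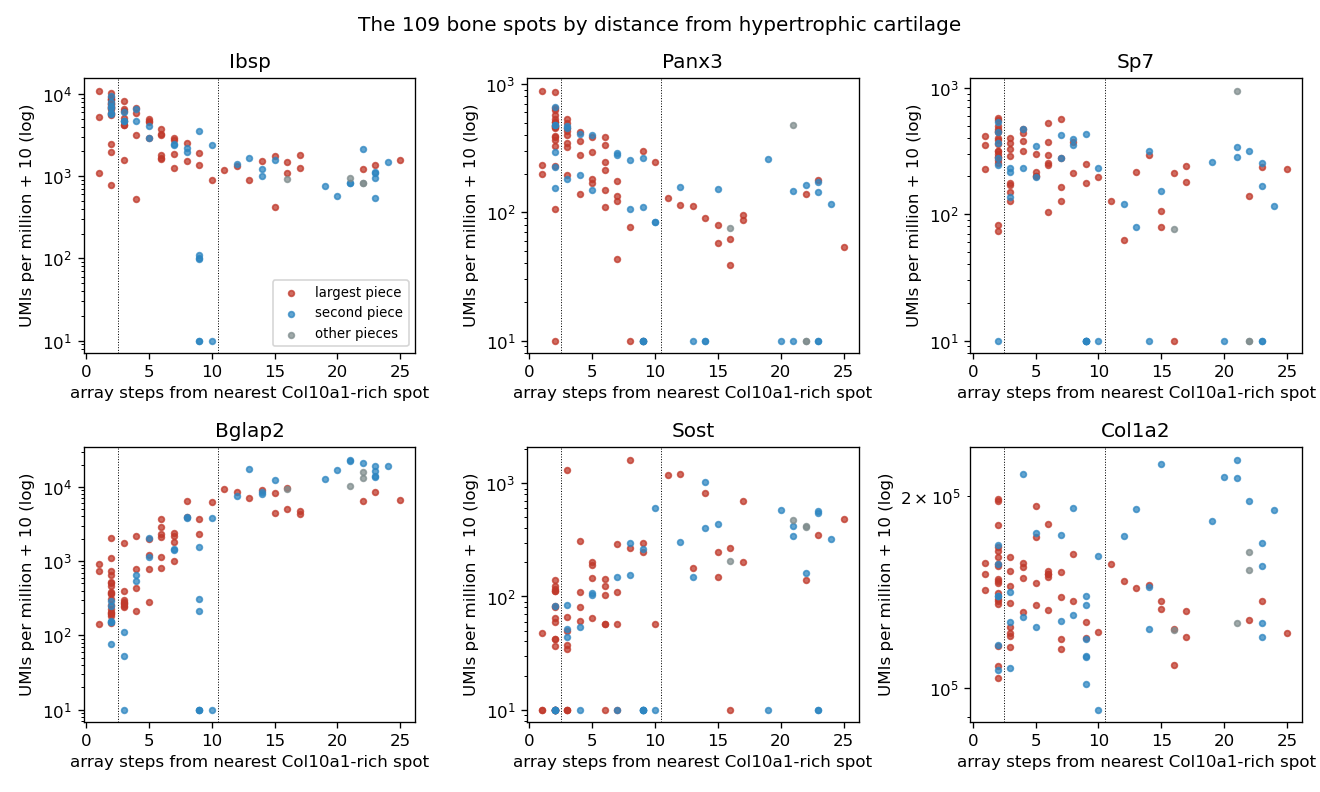
CPM of 6 genes in each of the 109 bone-forming spots against the number of steps to the nearest Col10a1-rich spot, coloured by tissue piece, with dotted lines at the limits of near and far. Ibsp, Panx3 and Sp7 are lower and Bglap2 and Sost higher far from these spots, and Col1a2 is level.

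Over all 4120 counted features, 106 (2.57%) were at least 2-fold higher in the far spots and 107 (2.60%) in the near spots, with a median log2 ratio of -0.13. The surroundings differed as well. All 12 counted muscle genes (median 2.02) and 7 of 8 erythroid genes (median 1.49) were higher far, and 5 of 15 cartilage genes were higher near (median -0.86). The neutrophil gene S100a9 stood at 269 near and 1811 far. The part of these tissues in the gradient was not tested. Marrow spots followed the axis in part. In 3, 20, 52 and 189 marrow spots at the same distances Bglap2 stood at 350, 414, 216 and 1969 CPM, and Sost at 10.8, 29.7 and 66.4 from 3 steps outward, so that both were highest in the far marrow spots too. Ibsp in the marrow spots stood at 583, 828, 566 and 406. The 3 nearest marrow spots held 9024 UMIs in all and the next 20 held 192495. Levels in the nearest 3, and that of Sost in the next 20, thus rest on few UMIs. Bglap, the copy of Bglap2, stood at 933 in the nearest 3. Whether the gradient differs between bone-forming and marrow spots was not tested.

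The direction was the same in both pieces that hold a Col10a1-rich spot. In the largest piece Bglap2 was at 447 near and 6830 far and Ibsp at 6499 and 1333, on 21 near and 13 far spots. In the next largest piece Bglap2 was at 167 and 14240 and Ibsp at 6976 and 1232, on 6 near and 15 far spots. Sost had log2 ratios of 3.32 and 5.05 and Sp7 of -1.02 and -1.13 in the respective pieces. The remaining 4 far spots lay in pieces with no Col10a1-rich spot, so that their distance runs to another piece.

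Some of the genes that divided are neighbours of genes that did not. On GRCm38.p6, Dmp1 (chr5:104197575-104214102), Ibsp (chr5:104299287-104311472), Mepe (chr5:104325329-104338611) and Spp1 (chr5:104435111-104441053) lie in 1 stretch of chromosome 5, the cluster of secreted mineral-binding proteins, and yet Ibsp was higher near, Dmp1 level and Mepe higher far, with Spp1 at 1.73 far over near (1.65 to 1.80). The 3 osteocalcin genes are neighbours on chromosome 3 (Bglap3, Bglap2 and Bglap, from 88368616 to 88384466). Their far-to-near ratios were 21.1 for Bglap3 (11.1 to 44.8) on 10 near UMIs, 22.9 for Bglap2 and 22.3 for Bglap (19.5 to 25.6), and these near-identical copies may share reads.

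The promoters of genes from each side of the gradient are shown to set their sequences next to their levels: Ibsp and Mmp13 were higher near the landmark, and Bglap and Mepe higher far from it. Each runs from 250 bases before the start to 50 after it, taken from RefSeq on GRCm38.p6, at chr5:104299037-104299336 (plus strand) for Ibsp, chr9:7272264-7272563 (plus) for Mmp13, chr3:88384417-88384716 (minus) for Bglap and chr5:104325079-104325378 (plus) for Mepe. Capitals mark TGTGGT or its reverse complement ACCACA, the core letters that RUNX factors bind.
Ibsp: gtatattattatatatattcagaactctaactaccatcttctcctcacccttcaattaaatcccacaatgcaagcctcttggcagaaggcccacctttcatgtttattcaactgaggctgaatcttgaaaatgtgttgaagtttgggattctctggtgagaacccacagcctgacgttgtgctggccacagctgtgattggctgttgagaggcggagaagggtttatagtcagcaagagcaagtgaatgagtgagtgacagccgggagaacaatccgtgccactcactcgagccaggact
Mmp13: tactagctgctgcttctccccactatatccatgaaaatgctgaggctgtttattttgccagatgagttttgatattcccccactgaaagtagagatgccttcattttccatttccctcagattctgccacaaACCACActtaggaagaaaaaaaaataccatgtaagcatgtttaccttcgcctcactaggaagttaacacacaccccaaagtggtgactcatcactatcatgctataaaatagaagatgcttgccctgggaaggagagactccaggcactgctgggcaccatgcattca
Bglap: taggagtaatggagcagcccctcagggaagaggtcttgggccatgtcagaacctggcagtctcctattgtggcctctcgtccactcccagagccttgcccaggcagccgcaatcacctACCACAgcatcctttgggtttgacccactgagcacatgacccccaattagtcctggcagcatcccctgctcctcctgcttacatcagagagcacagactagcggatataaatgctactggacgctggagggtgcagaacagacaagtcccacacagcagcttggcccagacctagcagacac
Mepe: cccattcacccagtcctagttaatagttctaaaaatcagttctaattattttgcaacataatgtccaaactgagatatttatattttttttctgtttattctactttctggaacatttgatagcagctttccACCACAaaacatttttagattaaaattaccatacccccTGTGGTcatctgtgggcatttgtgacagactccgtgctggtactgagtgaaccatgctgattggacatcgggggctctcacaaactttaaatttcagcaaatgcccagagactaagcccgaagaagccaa
The 6 letters occurred once in the Mmp13 window, 118 bases before the start, once in that of Bglap, 132 bases before it, and at 118 and 80 bases before the start of Mepe. They did not occur in the Ibsp window. Windows of Sparc, Spp1, Ifitm5 and Col1a2 were also looked at. The letters occurred in that of Sparc and in 1 Spp1 window but not another, and not in those of Ifitm5 and Col1a2. Of all 32851 promoters in the table, 16.8% hold the letters on either strand. The share was 12.4% for counted features (8711 of 10973 genes matched) and 10.9% for those at least 2-fold higher in bone-forming spots (1278 of 1669). Whether genes of either side hold the letters more often was not tested. A share over the bone lists is not read, since 59 of 86 of their genes had a promoter in the table.

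Position at the rim of the tissue was a second division. In 50 bone-forming spots with a neighbour off the tissue, against 59 inner ones, 42 of 7072 counted features (0.594%) were at least 2-fold higher and 28 (0.396%) lower. Of 16 non-collagen matrix genes 3 were higher at the rim, of 11 collagen chains 1 and of 8 tendon and fibrous tissue genes none. Postn stood at 2028 CPM at the rim and 728 inside, a ratio of 2.79 (2.58 to 3.01), Tnn at 599 and 221, a ratio of 2.71, Bglap2 at 4254 and 1634, a ratio of 2.60, and Col3a1 at 9861 and 4013, a ratio of 2.46. The rim spots also lay farther from the Col10a1-rich spots, at a median of 9 steps against 3, and rim and distance were not separated.

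Over the whole section, osteoclast genes did not set the bone-forming spots apart from the marrow spots. Of 17 counted genes 1 was higher, the matrix protease Mmp14 at 2.93-fold (2.74 to 3.13), and 1 lower, Car2 at 0.192 (0.182 to 0.203), which red cells also make (median 0.17). Ctsk, the collagen-degrading protease of osteoclasts, ranged from 92.4 to 16199 CPM with a median of 2149 in bone-forming spots and from 147 to 16578 with a median of 1424 in marrow spots, a pooled ratio of 1.17 (1.14 to 1.21). Acp5, the tartrate-resistant phosphatase, was at 1.07 (1.03 to 1.11). With TMM scaling the shift of all features was larger than the list's median and that of the endothelial list, and the sign of both turned, as did that of Acp5. The next largest piece also differed: Ctsk had a log2 ratio of 1.07 there and 0.06 in the largest. The list had a median of 1.27 there and 0.06 in the largest. Its summed level was 8373 CPM in bone-forming and 9114 in marrow spots, but 1383 in cartilage and 1837 in muscle spots.

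The osteoclast genes stood highest beside the bone-forming spots. At 0, 1, 2 and 3 steps from the nearest bone-forming spot Ctsk was at 2573, 4333, 3127 and 2125 CPM, Acp5 at 1637, 2849, 2059 and 1458 and Mmp9, the gelatinase of osteoclasts and neutrophils, at 2171, 3785, 2010 and 1288. The summed osteoclast list was at 8373 on the bone-forming spots, 14070 at 1 step and 4018 at 6 steps or more. These values pool spots of every class, and the far ones are mostly not marrow. In marrow spots alone the list was at 11522 at 1 step and 6936 at 6 steps or more, and Ctsk at 3429 and 1475. Over the same steps Col1a2 was at 144260, 62426, 34430 and 29916, and the erythroid list was at 22057, 54571, 89615 and 108020. Of the ligands that control osteoclasts, 2 of 4 were higher in bone-forming than in marrow spots (median 1.11). Tnfrsf11b (osteoprotegerin, which blocks osteoclast formation) was at 3.18-fold (2.22 to 4.54) on 63 and 68 UMIs, Csf1 at 2.66-fold (1.69 to 4.15) on 38 and 49 UMIs, and Tnfsf11 (RANKL, which drives it) at 1.51-fold (1.20 to 1.89).

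**Figure D5:**
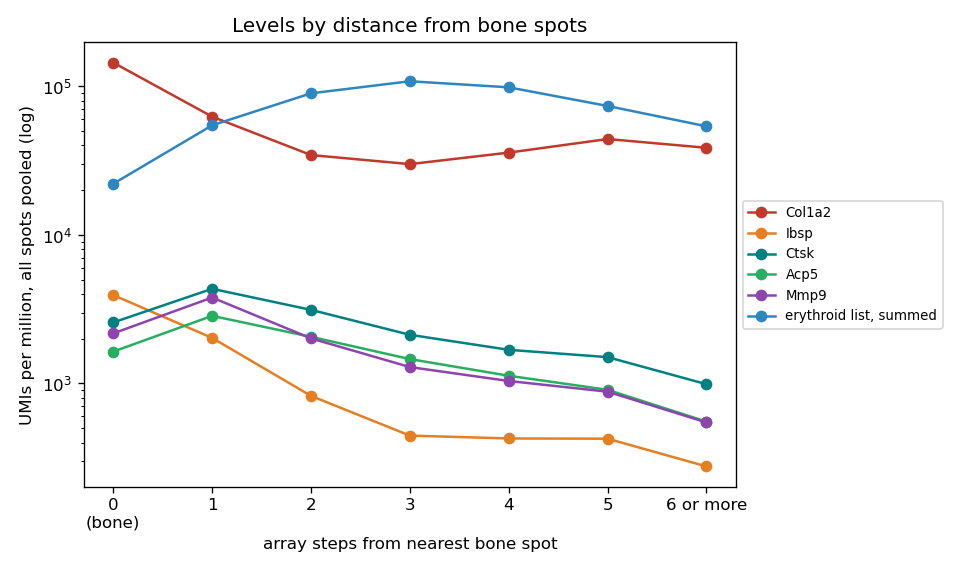
Pooled CPM, over spots of every class, of Col1a2, Ibsp, Ctsk, Acp5, Mmp9 and the summed erythroid list against the number of steps to the nearest bone-forming spot. Ctsk is highest at 1 step (4333 against 2573 at 0 steps), while Col1a2 is highest at 0 and the erythroid list at 3 steps (108020).

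Most of the differences of the whole section were also present in each of the largest pieces, which is no replication. The whole-section sums include these pieces, so that part of the overlap is built in. The largest piece holds 65 of the 109 bone-forming and 182 of the 264 marrow spots. The next largest, taken alone, had 1785 features at least 2-fold higher and 1670 lower. Of these, 1125 and 1047 were among those of the whole section. Of the 1669 features at least 2-fold higher in the whole section, 1028 (61.6%) were so in each of the largest pieces with no minimum of UMIs within a piece, and of the 1309 lower ones 995 (76.0%). In 82 and 30 of them, respectively, the sign was opposite in 1 piece. Collagen chains had medians of 2.22 in the largest and 1.95 in the next largest piece, and osteoblast transcription factors 1.67 and 1.28, while muscle genes had 0.99 and -0.67 and osteoclast genes 0.06 and 1.27.

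Across the 14 sections, the 6 osteoblast genes outside the rule stood highest in the P8 leg bone, though Runx2 only by a small margin. With all UMIs in the total, Sp7 stood at 79.0 CPM over its passing spots and at 0 to 9.16 in the other 13 sections, and Ibsp at 1130 against 0 to 57.0. Runx2 stood at 127 against 0 to 101, the highest of these in a wild-type spleen of the cross. The Ibsp value of 57.0 came from 2 UMIs in 14 passing spots of an EDTA-decalcified leg bone of a mouse of 6 months. The leg bone of 89 weeks, whose marrow was freed from the bone before it was embedded, held 45.5 Ibsp and 3.08 Sp7 CPM, from 384 and 26 UMIs. Fetal livers held 0 to 2.68 Ibsp and spleens 0 to 6.39. Bglap2 is a listed feature in the 6 purchased sections and in none of the 8 of the cross, so the feature lists differ. Runx2 stood at 21.1 CPM in the purchased spleen and at 50.4 to 101 in those of the cross. Each group but those of the cross is 1 section, and age, tissue, preparation and feature list cannot be told apart between the groups.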

How the data were processed

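Visium spatial gene expression was measured with 10x Genomics reagents on fixed, paraffin-embedded leg bone of 1 mouse at postnatal day 8. The deposited files hold raw UMI counts per feature and spot with the spot positions; per the labels the authors ran Space Ranger on mm10, and the matrix header names Cell Ranger 4. The deposited counts were not normalized, although the study normalized them for its own work.

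Of 1094 in-tissue spots, 9 with under 1000 detected genes were left out. Deprecated probe features (304, with 0.853% of in-tissue UMIs) were left out. UMIs were summed over the spots of a class, divided by the class total without Col1a1, Bglap and Ibsp, and compared as a ratio with an exact conditional binomial 95% interval. No test was run, since there is 1 section. Counted features had at least 50 UMIs over both classes, the 13 rule genes excepted, and a class at 0 UMIs was set to a floor of 3. Class totals were 2353197 UMIs for bone-forming and 8071376 for marrow spots. Named genes are members of the gene lists, the 12 features with the largest fold higher and the 8 with the largest fold lower. Some of these are not reported here. Members, lists and comparisons were chosen with earlier results of these data known, and the distance, rim and 6-spot descriptions after these values were seen. Each printed correlation is Spearman's rho over spots. The counting script was tested on simulated data. Python 3.11.15, numpy 2.4.6, scipy 1.17.1, pandas 2.3.3, matplotlib 3.10.9 and, for the TMM factor, edgeR 4.0.16 in R 4.3.3 were used. Promoters come from RefSeq on GRCm38.p6, of which mm10 is the UCSC name. Alternatives were the limits of the classes, other scalings, a fixed depth per spot, other minimums and single pieces of tissue.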

Additional observations from a re-analysis of the deposited data

Results flagged for a closer look

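Spots outside the tissue, which no comparison uses, held bone matrix transcripts. Col1a1, Bglap and Ibsp made up 5.92% of the 10326741 UMIs in 3897 off-tissue spots, above the limit that a count of 0 allows, and 6.20% of those in passing tissue spots. In the 70 off-tissue spots that lay 1 step from a bone-forming spot the share was 9.84%, with Col1a2 at 88508 CPM against 51509 over all off-tissue spots.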

How the results depend on the processing

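Small ratios turned in sign between settings: with TMM scaling the median over counted features went from 0.13 to -0.07 and with it those of the osteoclast and endothelial lists, and the muscle list had a median of 0.99 in the largest piece and -0.67 in the next. Counts of features at least 2-fold apart moved with several settings, and the cause was not tested. Against marrow the higher features numbered 573 (4.74% of counted features) with no neutrophil minimum for marrow spots and 165 (17.0%) with each spot thinned to 1000 UMIs. They numbered 984 (13.4%) with at least 200 UMIs per feature, 4671 (28.4%) with no minimum and 647 (15.9%) in the next largest piece alone. The main setting gave 15.2%. The lower features numbered 181 (18.6%) when thinned, 856 (11.7%) with at least 200 UMIs and 470 (11.5%) in that piece, against 11.9% in the main setting. Against cartilage, thinning, at least 10 UMIs, at least 200 UMIs, no minimum and that piece gave 102, 2522, 515, 2746 and 742 higher and 72, 862, 198, 2068 and 232 lower features. Against muscle the same settings gave 85, 1381, 437, 2237 and 289 higher and 110, 1750, 531, 2826 and 244 lower. Between far and near spots, that piece and at least 200 UMIs gave 43 (7.26%) and 28 (3.68%) higher features. The lower ones numbered 172 (3.39%) with the top 10% of spots by Col10a1 and 180 (4.37%) with each spot weighted equally. They numbered 46 (7.77%) in that piece and 23 (3.02%) with at least 200 UMIs. Thinning left 973 counted features against marrow. The 6 osteoblast genes outside the rule were at least 2-fold higher in 119 of 120 combinations of gene and setting, the exception being Runx2 after thinning, with a log2 ratio of 0.77. The settings for single pieces, for leaving out bone-forming spots that were marker-poor or met the neutrophil minimum, and for distance were chosen after seeing the data. No paired analysis was possible because 1 section was compared with itself. Depth limits the rarer genes in single spots: 14 bone-forming spots had no Sp7 UMI, which does not show that the gene was absent there.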

Other observations

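Beyond the bone lists, further genes followed the distance from the Col10a1-rich spots. Ptch1, the hedgehog receptor and target gene, stood at 114, 61.2, 49.0 and 33.7 CPM from near to far, a near-to-far ratio of 3.40 (1.93 to 6.37) on 74 and 15 UMIs. Gpx3, a secreted peroxidase, stood at 840 near and 245 far, a ratio of 3.43 (2.79 to 4.25), and Pcolce2, a collagen-processing enhancer, at 173 and 38.2, a ratio of 4.54 (2.71 to 8.06). Hoxb2 had 51 near and 3 far UMIs, a ratio of 11.7 (3.79 to 58.6).

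Of 5 counted endothelial genes 2 were at least 2-fold higher near and none far, where 2.60% of all counted features were higher near: Plvap, a fenestral protein, at 299 and 124 CPM, a ratio of 2.42 (1.78 to 3.32), and Cdh5 (VE-cadherin) at a ratio of 2.49 (1.60 to 4.01). Igfbp5, a binding protein of insulin-like growth factors, lay on the far side, at 362 near and 1137 far, a far-to-near ratio of 3.14 (2.68 to 3.68). These genes were named after their values were seen.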
